A study of Drosophila melanogaster with 36 samples.

Results

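The 10 genes described here are the Drosophila insulin-like peptide genes Ilp1, Ilp2, Ilp3, Ilp5, Ilp6, Ilp7 and Ilp8, the insulin receptor gene InR, the gene of the insulin-binding protein ImpL2 and the gene of the receptor adaptor chico. They were chosen by name, by matching the listed symbols to gene identifiers, and were 10 of the 17606 genes in the count table. Their transcripts were followed over 12 groups of larval brains, and 9 of the 10 had enough reads to be tested. Ilp8 did not.

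Insulin-like peptides couple feeding to growth in the fly. Ilp2, Ilp3 and Ilp5 are made by a small cluster of neurosecretory cells in the larval brain, the insulin-producing cells, which release them into the circulation. They act on the receptor InR, whose signal passes through the adaptor chico to PI3 kinase and Akt, holds back the transcription factor foxo and activates TOR, while ImpL2 is a secreted protein that binds the peptides and inhibits them.

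The samples were polyA-selected messenger RNA of brains from wandering L3 larvae of Drosophila melanogaster, raised at 25 °C, in 6 genotypes and both sexes with 3 libraries in each of the 12 groups, 36 in all. H3.3WTH3.2K36R was set against its control H3.3WTH3.2HWT, H3.3K36RH3.2HWT against its control H3.3CtrlH3.2HWT, and Set21, a mutant of the histone H3 lysine 36 methyltransferase gene Set2, against yw, always within a sex. K36R in a name stands for arginine in place of the lysine at that position, in the replication-coupled histone H3.2 or in the variant H3.3. Both H3.2HWT genotypes of the H3.3 pair, the control included, had little His3.3A RNA, the transcript of an H3.3 gene (65.6 to 69.4 CPM as group means, against 249 to 353 CPM in the other 8 groups), so this reduction is common to mutant and control. The labels give the genotype names and no further detail of transgenes, background or age in hours, and neither separate animals nor pools are named as the origin of replicate libraries, so p-values measure the spread between these libraries, which may be technical.

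Each library had between 82484909 and 143786952 reads counted in genes. Levels are given in CPM, read counts scaled to each library's depth with TMM factors. A value with ± is the mean and SD of the 3 libraries of a group, unless SE is named. Set2 itself had 28.9 ± 0.904 CPM in Set21 males and 32.1 ± 1.08 CPM in Set21 females, against 198 ± 2.84 CPM in yw males and 185 ± 4.17 CPM in yw females. The male-specific RNA roX2 was read in female libraries at 0.0930% to 35.7% of the male mean of the same genotype. It was at 17.4% to 35.7% in 6 female libraries, which were H3.3WTH3.2K36R replicate 1, H3.3K36RH3.2HWT replicates 1 and 2 and the 3 of H3.3WTH3.2HWT, and the cause was not tested. Results of the H3.2K36R females were also fitted without H3.3WTH3.2K36R female replicate 1 and H3.3WTH3.2HWT female replicate 2, the libraries of these genotypes with most roX2. Calls of named genes that were lost in this way are given with the genes. Those of the H3.3K36R females were likewise fitted without H3.3K36RH3.2HWT female replicate 2 and H3.3CtrlH3.2HWT female replicate 2. Both alternatives were chosen after seeing the data. The 10 markers of differentiated neurons summed to 3660 to 3910 CPM in Set21 males and 3800 to 3940 CPM in Set21 females, against 4300 to 4760 CPM in yw males and 4530 to 4690 CPM in yw females, and to 3740 to 4460 CPM in the other 8 groups. Markers of fat body, ring gland, glia, hemocytes and imaginal discs were read as well, and no marker of these lists was at 0 in all libraries of a group, so the samples held RNA that such cells make. In bulk tissue, fewer cells of a type and less RNA per cell cannot be told apart.

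Per kilobase of exon, the abundant peptide of the insulin-producing cells was Ilp2, with a median over 36 libraries of 53.8 CPM per kilobase. InR followed at 33, Ilp3 at 29.2, chico at 17.1, Ilp5 at 13.6, Ilp6 at 11.5 and ImpL2 at 7.81 CPM per kilobase. Ilp1 and Ilp7 were rare, at 0.936 and 0.603 CPM per kilobase, and Ilp8 was near 0 at 0.0105 CPM per kilobase. On this per-length scale the libraries of the rare peptides lay between 0.449 and 2.19 for Ilp1 and between 0.273 and 1.70 for Ilp7, below every library of Ilp2, Ilp3, Ilp5 and Ilp6, whose lowest values were 34.1, 20.6, 7.41 and 8.05 CPM per kilobase. ImpL2 shares 1651 of its 2667 exon bases, and Ilp1 258 of 631, with another gene on the same strand. How reads in shared bases were counted is not given, so the values per kilobase of ImpL2 and Ilp1 may be too low.

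**Figure D1:**
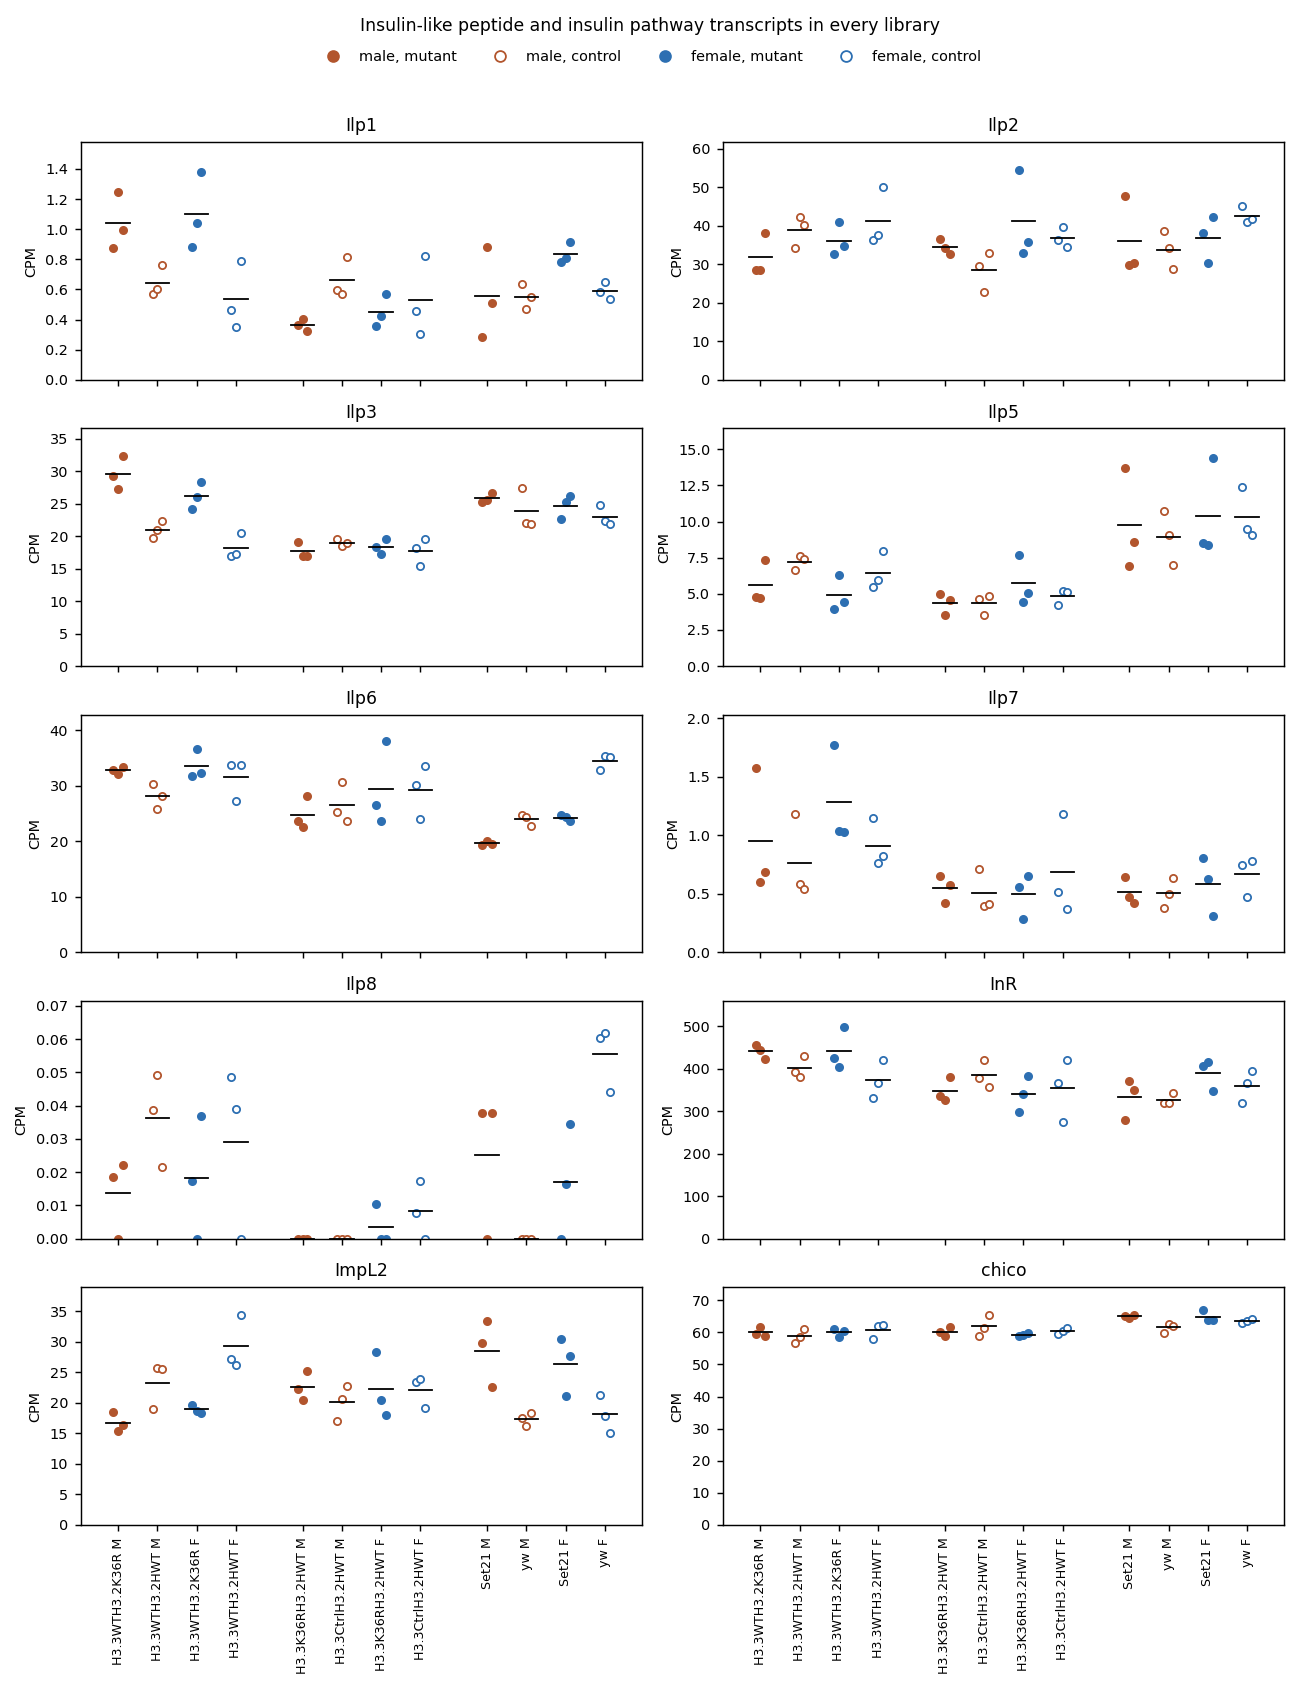
Level in CPM (y axis, from 0, a scale of its own for each gene) of the 10 genes in each of the 36 libraries, with the 12 groups on the x axis. Filled points are mutant and open points control libraries, M and F are males and females, and bars are group means. Ilp3 in H3.3WTH3.2K36R brains lies above its control in both sexes (27.3 to 32.4 against 19.7 to 22.4 CPM in males), ImpL2 lies below, and ImpL2 in Set21 males lies above yw males.

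Which of these genes moved differed between the mutants. Ilp3 rose and ImpL2 fell in H3.3WTH3.2K36R brains of both sexes, and Ilp1 rose in the females. ImpL2 rose in Set21 brains of both sexes, and Ilp6 fell in the Set21 females. None of the 9 tested genes passed in H3.3K36RH3.2HWT brains of either sex. Called here means an adjusted p under 0.05 in the quasi-likelihood test of edgeR, with Benjamini-Hochberg adjustment over all 12167 genes tested.

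These counts stand against a broad background of change. In H3.3WTH3.2K36R males 2 of 9 tested genes were called, where 25.4% of all tested genes were called, and in H3.3WTH3.2K36R females 3 of 9, where 24.8% were. Without the libraries with most roX2, 2 of 9 were called in these females. In H3.3K36RH3.2HWT brains it was 0 of 9 in males and 0 of 9 in females, where 9.96% and 6.35% of all genes were called. At an unadjusted p under 0.05 the edgeR test had 1 of 9 in these males (Ilp1) and 0 of 9 in these females, and DESeq2 called 0 of 9 in each. Without the H3.3 pair's female libraries with most roX2 it was 0 of 9 in these females too. In Set21 males 1 of 9 was called, where 44.9% of all genes were, and in Set21 females 2 of 9, where 42.4% were. The shares were near the background for H3.2K36R and below it for Set2. The median log2 fold change of the 9 genes was 0.14, 0.09, -0.04, 0.00, 0.08 and 0.03 in these 6 comparisons in the same order, beside medians over all genes of 0.00, -0.00, 0.00, -0.00, 0.02 and 0.01.

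**Figure D2:**
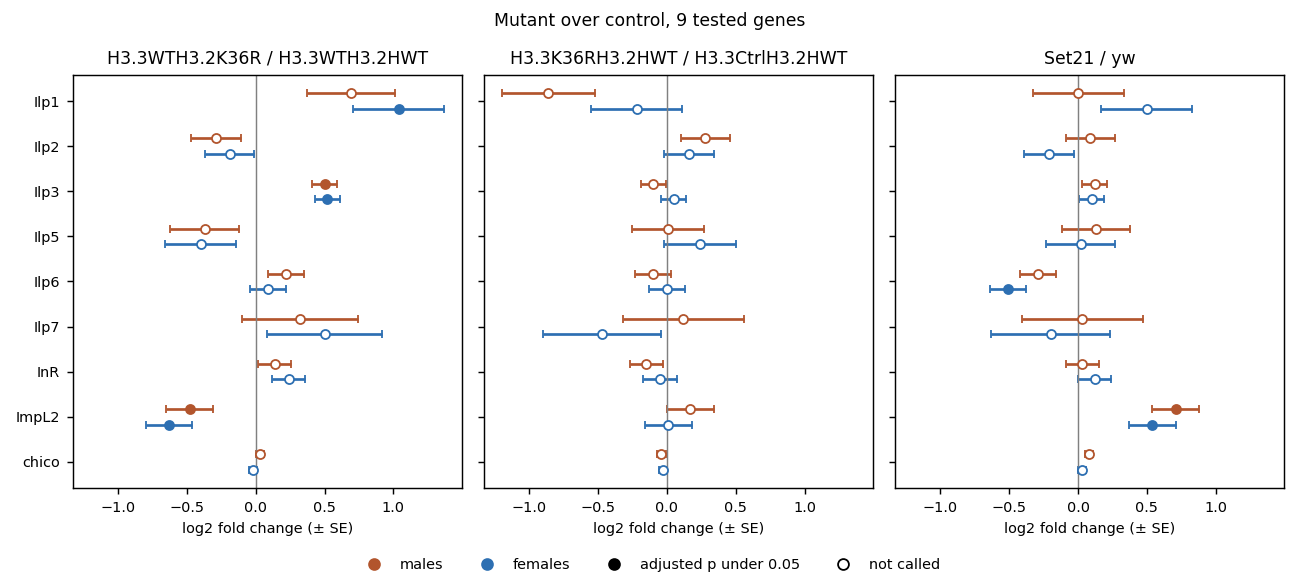
Log2 fold change of mutant over control (x axis, with SE as bars) for the 9 tested genes (y axis), 1 panel per mutant, males above females within each gene. Filled points have an adjusted p under 0.05 in edgeR's quasi-likelihood test, and ImpL2 is called to the left of 0 in the H3.3WTH3.2K36R panel and to the right of 0 in the Set21 panel.

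Ilp3 encodes a peptide of the insulin-producing cells and lies on arm 3L, where it follows Ilp1 and Ilp2 and precedes Ilp4 among coding genes. It had 29.2, 27.3 and 32.4 CPM in H3.3WTH3.2K36R males, against 19.7, 21 and 22.4 CPM in H3.3WTH3.2HWT males. In females it had 24.1, 26 and 28.3 CPM in the mutant, against 16.9, 17.3 and 20.5 CPM in the control. Every mutant library was above every control library of its sex. The log2 fold change was 0.50 ± 0.09 (SE) in males, with an edgeR adjusted p of 1.7e-04, and 0.52 ± 0.09 in females, with an edgeR adjusted p of 1.2e-04. Without the libraries with most roX2 the female value was 0.54 (edgeR adjusted p 0.0016). Ilp3 did not pass in the other mutants. It averaged 17.7 ± 1.25 CPM in H3.3K36RH3.2HWT males and 19 ± 0.577 CPM in H3.3CtrlH3.2HWT males, and 18.4 ± 1.16 CPM in the mutant females and 17.7 ± 2.08 CPM in the control females. In Set21 males it averaged 25.8 ± 0.725 CPM, against 23.8 ± 3.18 CPM in yw males, and in Set21 females 24.7 ± 1.86 CPM, against 23 ± 1.56 CPM in yw females. Libraries overlapped in all 4 of these pairs, and without yw male replicate 1, the highest library of its group, the Set21 males passed with 0.24 (edgeR adjusted p 0.044). In the order of the 12 group means, the top 6 groups of Ilp3 were those of H3.3WTH3.2K36R, Set21 and yw, from 29.6 down to 23 CPM, and neighbours in this order overlapped except that the H3.3WTH3.2HWT males, at rank 7, lay wholly above the H3.3CtrlH3.2HWT males, at rank 8. The control H3.3WTH3.2HWT was itself below yw over both sexes (log2 difference -0.26 ± 0.07, edgeR adjusted p 0.0027).

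Ilp2, the most abundant peptide of these cells, lies next to Ilp3 and did not pass in any of the 6 comparisons. It had 28.6, 28.6 and 38.1 CPM in H3.3WTH3.2K36R males, against 34.1, 42.3 and 40.3 CPM in H3.3WTH3.2HWT males, and 32.6, 40.9 and 34.8 CPM in the mutant females, against 36.3, 37.5 and 50.1 CPM in the control females. The groups overlapped in both sexes, with log2 fold changes of -0.29 ± 0.18 and -0.19 ± 0.18 (SE). In H3.3K36RH3.2HWT brains the log2 fold changes were 0.28 ± 0.18 in males and 0.16 ± 0.18 in females, and in Set21 brains 0.09 ± 0.18 and -0.21 ± 0.18. The group means of Ilp2 ran from 28.5 CPM in H3.3CtrlH3.2HWT males to 42.6 CPM in yw females, and all 11 pairs of neighbours in that order overlapped.

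Ilp5 completes the set of peptides of the insulin-producing cells, and it did not pass in any of the 6 mutant comparisons either. It had 4.78, 4.68 and 7.31 CPM in H3.3WTH3.2K36R males, against 6.66, 7.61 and 7.42 CPM in H3.3WTH3.2HWT males, and 3.92, 6.30 and 4.45 CPM in the mutant females, against 5.46, 5.98 and 7.94 CPM in the control females. These groups overlapped, and the log2 fold changes were -0.37 ± 0.25 and -0.40 ± 0.26 (SE). In Set21 brains it had 13.7, 6.90 and 8.59 CPM in males and 8.54, 8.38 and 14.4 CPM in females, against 10.7, 9.05 and 6.97 CPM in yw males and 12.4, 9.47 and 9.07 CPM in yw females. In each Set21 group a single library was far above the other 2. In the H3.3 pair it had 4.38 ± 0.741 CPM in H3.3K36RH3.2HWT males and 5.72 ± 1.73 CPM in the females, against 4.36 ± 0.712 CPM in H3.3CtrlH3.2HWT males and 4.84 ± 0.557 CPM in the females.

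Across libraries, Ilp2 and Ilp5 varied together. Over the 36 libraries, each taken as its deviation in log2 CPM from the mean of its own group, Pearson's r was 0.88 and Spearman's rho 0.85, each with a 2-sided permutation p of 1.0e-05, the smallest that 100000 permutations within groups can give, and 3.6e-04 after Benjamini-Hochberg adjustment over the 36 pairs of tested genes. Without the 2 libraries farthest out on Ilp2, r was 0.85. Ilp3 followed this axis less closely, with r of 0.34 (permutation p 0.057, adjusted 0.20) and rho of 0.37 (permutation p 0.042, adjusted 0.15) against Ilp2, and r of 0.48 (permutation p 0.0084, adjusted 0.066) and rho of 0.53 (permutation p 0.0050, adjusted 0.052) against Ilp5. Whether the correlation of Ilp2 with Ilp5 exceeds those of Ilp3 was not tested. Of the 36 pairs, 1 had both adjusted values under 0.05. The libraries share their depth scaling, and how much of the insulin-producing tissue each one held was not measured separately.

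**Figure D3:**
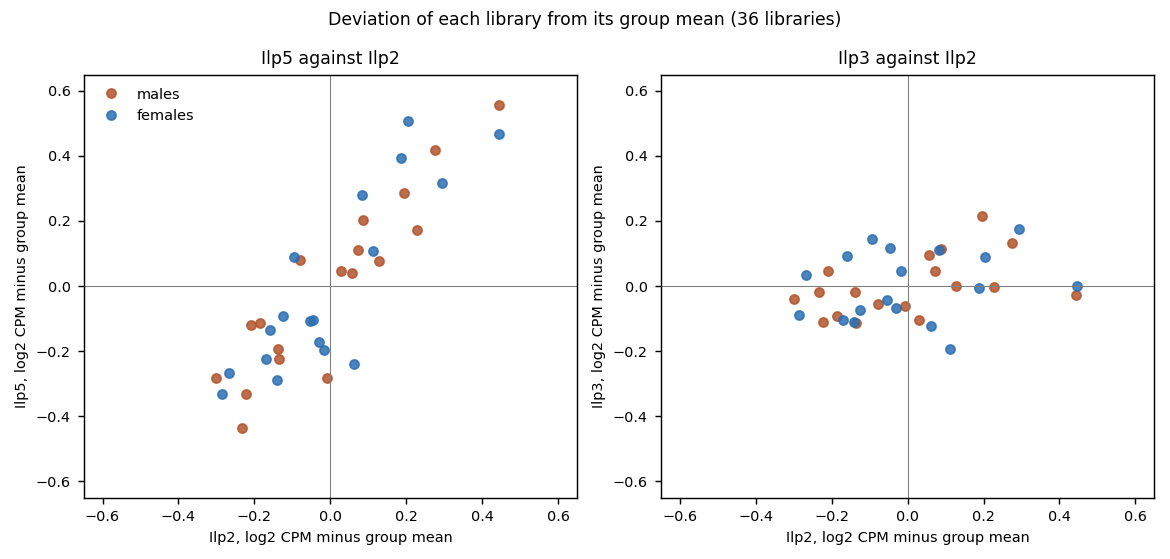
Deviation of each of the 36 libraries from its group mean in log2 CPM, Ilp5 (left, y axis) and Ilp3 (right, y axis) against Ilp2 (x axis), with males and females in separate colours. The left panel forms a narrow diagonal (r of 0.88) and the right panel a broad cloud (r of 0.34).

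Ilp1 is a peptide of the same cluster of genes that is known chiefly from pupal insulin-producing cells, and it was rare here, with 30 to 150 reads per library. It had 0.882, 1.04 and 1.38 CPM in H3.3WTH3.2K36R females, against 0.467, 0.350 and 0.790 CPM in H3.3WTH3.2HWT females. All mutant libraries were above all control libraries, and the log2 fold change was 1.04 ± 0.33 (SE), with an edgeR adjusted p of 0.019. The call was lost without H3.3WTH3.2HWT female replicate 1 (0.95, edgeR adjusted p 0.076) or 2 (0.81, 0.12) and without H3.3WTH3.2K36R female replicate 3 (0.85, 0.11). It was also lost without the libraries with most roX2 (0.95, 0.099) and with only the compared libraries fitted (1.05, 0.064). In H3.3WTH3.2K36R males it had 0.876, 1.25 and 0.994 CPM, against 0.571, 0.603 and 0.763 CPM in H3.3WTH3.2HWT males. Those libraries did not overlap either, but the log2 fold change of 0.69 ± 0.32 had an edgeR adjusted p of 0.12 and did not pass. In H3.3K36RH3.2HWT males it had 0.366, 0.404 and 0.323 CPM, all below the 0.598, 0.573 and 0.817 CPM of H3.3CtrlH3.2HWT males, with a log2 fold change of -0.86 ± 0.34 and an edgeR adjusted p of 0.11. The females of that pair overlapped, as did the Set21 and yw males, and Set21 females had 0.784, 0.810 and 0.912 CPM, against 0.583, 0.650 and 0.540 CPM in yw females (edgeR adjusted p 0.23). Ilp1 shares 258 of its 631 exon bases with CG32052 on the same strand in the Ensembl annotation, so its counts are uncertain. CG32052 had 8.27 ± 0.373 CPM in H3.3WTH3.2K36R females and 8.07 ± 0.0521 CPM in H3.3WTH3.2HWT females.

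Markers of other cell types and of insulin-producing cells were read in the same libraries. The 9 neural stem cell markers summed to 2560 to 2670 CPM in H3.3WTH3.2K36R males and 2050 to 2920 CPM in the females. The H3.3WTH3.2HWT males had 9030 to 12500 CPM and the females 10200 to 12700 CPM. Of the 9, 7 were lower in males and 8 in females, beside 13.1% and 13.7% of all genes lower, and none was at 0. The RNA cherub made up most of the stem cell sum, with a mean of 9410 CPM over all libraries. The 10 markers of differentiated neurons summed to 4260 to 4380 CPM in H3.3WTH3.2K36R females, above the 3950 to 4210 CPM of H3.3WTH3.2HWT females. In males the neuron sums overlapped, at 4010 to 4090 CPM in the mutant and 3740 to 4160 CPM in the control. Of 12 markers of insulin-producing cells, which include Ilp2, Ilp3 and Ilp5, 3 rose and 0 fell in H3.3WTH3.2K36R males, beside 12.3% of all genes higher and 13.1% lower, and 4 rose and 1 fell in the females, beside 11.1% higher and 13.7% lower. Sur, a subunit of ATP-sensitive potassium channels, rose with a log2 fold change of 0.58 ± 0.08 in males and 0.62 ± 0.08 in females (edgeR adjusted p 4.9e-06 and 2.2e-06). The part of these markers in the rise of Ilp3 and Ilp1 was not tested.

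Ilp6 encodes a peptide known from fat body and from glia at the brain surface, and its gene lies on the X chromosome. It had 24.7, 24.3 and 23.7 CPM in Set21 females, against 32.9, 35.4 and 35.2 CPM in yw females. Every Set21 library was below every yw library, and the log2 fold change was -0.51 ± 0.13 (SE), with an edgeR adjusted p of 0.0018. In males it had 19.4, 20 and 19.6 CPM in Set21, against 24.8, 24.4 and 22.7 CPM in yw. These libraries did not overlap, but the log2 fold change of -0.29 ± 0.13 had an edgeR adjusted p of 0.070 and did not pass, while with only the compared libraries fitted it did (edgeR adjusted p 0.0036). The male response minus the female response was 0.22 ± 0.18, with an edgeR adjusted p of 0.73. In H3.3WTH3.2K36R males Ilp6 averaged 32.8 ± 0.576 CPM, against 28.1 ± 2.16 CPM in H3.3WTH3.2HWT males (edgeR adjusted p 0.21, and 0.034 with only the compared libraries fitted), and in the mutant females 33.6 ± 2.7 CPM, against 31.6 ± 3.72 CPM in the control females. The H3.3 pair overlapped in both sexes.

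The 10 fat body markers summed to 1140 to 1270 CPM in Set21 females, against 1500 to 1750 CPM in yw females. Of the 10, 4 were lower and none higher, beside 21.5% of all genes lower and 20.9% higher, and none was at 0 throughout a group. In males the sum was 1350 to 1390 CPM in Set21, against 1470 to 1600 CPM in yw. The 9 glial markers summed to 901 to 967 CPM in Set21 females, against 1080 to 1160 CPM in yw females. Of the 9, 2 were higher and 4 lower, beside the same 20.9% and 21.5% of all genes. In males the glial sum was 1000 to 1270 CPM in Set21, against 1190 to 1270 CPM in yw. In H3.3WTH3.2K36R brains the Ilp6 means were above their controls. There the fat body sum was 1110 to 1360 CPM in males and 1480 to 1690 CPM in females. The H3.3WTH3.2HWT controls had 1450 to 1930 and 1690 to 1820 CPM. The glial sums of these mutant males and females were 841 to 895 and 834 to 913 CPM, against 916 to 1020 and 944 to 1080 CPM. In H3.3K36RH3.2HWT males and females the fat body sums were 1680 to 1810 and 1940 to 2110 CPM. The H3.3CtrlH3.2HWT males and females had 1480 to 1520 and 1680 to 1890 CPM. Glial sums of that mutant were 1100 to 1160 and 1000 to 1210 CPM, against 878 to 933 and 879 to 1170 CPM. The part of fat body and glial markers in the lower Ilp6 was not tested.

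Ilp7, known from neurons of the ventral nerve cord, had 31 to 205 reads per library. Its group means ran from 0.498 ± 0.191 CPM in H3.3K36RH3.2HWT females to 1.28 ± 0.423 CPM in H3.3WTH3.2K36R females. Libraries of mutant and control overlapped in all 6 comparisons, and none was called. The SE of its log2 fold changes, 0.42 to 0.44, was the widest of the 9 genes, so changes of that size, and larger ones, could go uncalled with these libraries. In H3.3WTH3.2K36R and H3.3WTH3.2HWT brains of both sexes, replicate 1 was the highest library, at 1.57 and 1.77 CPM in the mutant males and females, against 1.18 and 1.15 CPM in the control males and females.

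Ilp8, a relaxin-like peptide that growing or damaged imaginal discs send to the brain receptor Lgr3, had 0 to 7 reads per library and 66 reads in all. It was at 0 reads in 17 of the 36 libraries and was not tested. The 3 libraries of yw females had 6, 6 and 4 reads, and those of yw males none. A count of 0 allows up to 3 fragments in a library, which is 6 reads where both reads of a pair are counted, so these levels cannot be told apart at this depth. Ilp4, which lies between Ilp3 and Ilp5 and is not among the 10, was likewise near 0, with at most 2 reads in a library.

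ImpL2 moved in opposite directions in the H3.2 mutant and in the Set2 mutant. It had 18.5, 15.3 and 16.4 CPM in H3.3WTH3.2K36R males, against 18.9, 25.7 and 25.5 CPM in H3.3WTH3.2HWT males. In females it had 19.7, 18.7 and 18.3 CPM in the mutant, against 27.1, 26.2 and 34.4 CPM in the control. All mutant libraries were below all control libraries, narrowly so in males, where the highest mutant and the lowest control library nearly touched. The log2 fold change was -0.48 ± 0.17 (SE) in males, with an edgeR adjusted p of 0.035, and -0.63 ± 0.17 in females, with an edgeR adjusted p of 0.0062. The male call was lost without H3.3WTH3.2HWT male replicate 2 (-0.41, edgeR adjusted p 0.13) or 3 (-0.42, 0.11) and without H3.3WTH3.2K36R male replicate 2 (-0.43, 0.12) or 3 (-0.48, 0.080). The female call was lost without H3.3WTH3.2HWT female replicate 3 (-0.49, edgeR adjusted p 0.053), and it held without the libraries with most roX2 (-0.73, 0.018).

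In Set21 males ImpL2 had 29.7, 33.3 and 22.5 CPM, against 17.5, 16.2 and 18.3 CPM in yw males. In Set21 females it had 30.4, 21.1 and 27.6 CPM, against 21.3, 17.8 and 15.1 CPM in yw females. The male groups did not overlap, while the lowest Set21 female library lay just under the highest yw female library. The log2 fold change was 0.71 ± 0.17 in males, with an edgeR adjusted p of 8.9e-04, and 0.54 ± 0.17 in females, with an edgeR adjusted p of 0.010. The female call was lost without yw female replicate 3 (0.43, edgeR adjusted p 0.068) or Set21 female replicate 1 (0.43, 0.066). In the H3.3 pair ImpL2 averaged 22.6 ± 2.38 CPM in H3.3K36RH3.2HWT males and 22.3 ± 5.41 CPM in the females, against 20.1 ± 2.88 CPM in H3.3CtrlH3.2HWT males and 22.1 ± 2.63 CPM in the females, with overlapping libraries. The controls themselves differed. H3.3WTH3.2HWT was above yw by a log2 difference of 0.56 ± 0.12 over both sexes (edgeR adjusted p 4.0e-04), so the lowered mean of the H3.2 mutant, 16.7 CPM in males and 18.9 CPM in females, stood beside 17.4 and 18.1 CPM in yw males and females, and the raised means of Set21, 28.5 and 26.3 CPM in males and females, beside 23.3 and 29.2 CPM in H3.3WTH3.2HWT males and females. These sets share their control libraries.

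ImpL2 is also known as an ecdysone-inducible gene, and markers of the ring gland, the source of ecdysone, were read in the same samples. The 10 markers summed to 246 to 343 CPM in Set21 males, against 86.7 to 233 CPM in yw males, with 5 of 10 higher. In Set21 females the sum was 259 to 299 CPM, against 151 to 238 CPM in yw females, with 1 of 10 higher. Of all genes, 22.9% were higher in Set21 males and 20.9% in Set21 females. In H3.3WTH3.2K36R females the sum was 135 to 301 CPM, against 378 to 434 CPM in H3.3WTH3.2HWT females, with 3 of 10 lower and 1 higher. Of all genes in these females, 13.7% were lower and 11.1% higher. In males the sums overlapped, at 204 to 362 CPM in H3.3WTH3.2K36R and 232 to 511 CPM in H3.3WTH3.2HWT. There 1 of 10 was lower, beside 13.1% of all genes. ImpL2 was not called in the H3.3 pair. There the sum was 168 to 280 CPM in H3.3K36RH3.2HWT females, against 271 to 446 CPM in H3.3CtrlH3.2HWT females. The males of that pair had 224 to 310 CPM in the mutant, against 191 to 481 CPM in the control. No marker of the list was at 0 throughout a group, and its part in the change of ImpL2 was not tested. ImpL2 shares 1651 of its 2667 exon bases with CG46460 on the same strand, which was listed at 0 reads in all 36 libraries. The counting of reads in shared bases is not given, so the counts of ImpL2 are uncertain too.

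InR, the receptor, had the most reads of the 10 genes and was not called in any of the 6 comparisons. It had 456, 444 and 423 CPM in H3.3WTH3.2K36R males, against 392, 381 and 430 CPM in H3.3WTH3.2HWT males, and 425, 404 and 498 CPM in the mutant females, against 332, 367 and 422 CPM in the control females. The groups overlapped slightly in both sexes, with log2 fold changes of 0.14 ± 0.12 and 0.24 ± 0.12 (SE). The other 4 log2 fold changes were -0.15, -0.05, 0.03 and 0.12, each with an SE of 0.12. Group means ran from 327 CPM in yw males to 442 CPM in H3.3WTH3.2K36R females, and all neighbours in that order overlapped.

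The adaptor chico was the steadiest of the 9 tested genes, with library levels between 56.6 and 66.8 CPM and an SE of 0.03 on each log2 fold change. It had 65.1, 64.6 and 65.3 CPM in Set21 males, against 59.9, 62.6 and 62.0 CPM in yw males. Those groups did not overlap, but the log2 fold change of 0.08 ± 0.03 had an edgeR adjusted p of 0.052 and did not pass. It did pass with DESeq2 size factors (edgeR adjusted p 0.049), a minimum count of 50 (0.015), without yw male replicate 2 (0.045), without Set21 male replicate 2 (0.040) and in DESeq2 (0.043). In Set21 females it averaged 64.7 ± 1.78 CPM, against 63.5 ± 0.584 CPM in yw females. In the H3.2 and H3.3 pairs the log2 fold changes lay between -0.04 and 0.03 and libraries overlapped. An antisense gene, CR44995, overlaps 380 bases of chico exon, and without a stated strand setting reads of the pair cannot be told apart.

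Responses of males and females were compared directly in the same fit. No tested member was called for a difference between the sexes in the H3.2K36R, H3.3K36R or Set2 response, where 0.0658%, 0.181% and 3.43% of all genes were called, and none had an unadjusted p under 0.05 in the edgeR test or was called by DESeq2. The largest differences were those of the rare Ilp1, with males minus females at -0.36 ± 0.46, -0.64 ± 0.47 and -0.49 ± 0.46 in the 3 mutants, and that of Ilp7 in the H3.3 pair, at 0.59 ± 0.62. The SE of these differences was 0.24 for ImpL2 and 0.13 for Ilp3. A call needs a difference of several times its SE, so the sexes could be further apart than these values without being called.

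Responses also differed between the mutants, averaged over the sexes. Between H3.2K36R and H3.3K36R, 3 of 9 genes differed, where 28.7% of all genes did. The H3.2K36R response was higher by 1.41 ± 0.33 for Ilp1 and by 0.53 ± 0.09 for Ilp3 (log2, edgeR adjusted p 0.0018 and 6.8e-05), and lower for ImpL2, at -0.64 ± 0.17 (edgeR adjusted p 0.0043). Between H3.2K36R and Set2, 3 of 9 differed, where 41.4% of all genes did. Ilp3 was at 0.40 ± 0.09, Ilp6 at 0.56 ± 0.13 and ImpL2 at -1.18 ± 0.17 (edgeR adjusted p 9.9e-04, 7.9e-04 and 1.6e-06). Each response is taken from its own control, so a difference between the controls is part of these values. H3.3WTH3.2HWT minus yw was -0.26 ± 0.07 for Ilp3 and 0.56 ± 0.12 for ImpL2. Ilp3 means were 29.6 and 26.1 CPM in H3.3WTH3.2K36R males and females, beside 25.8 and 24.7 CPM in Set21 males and females. Between Set2 and H3.3K36R, 3 of 9 differed, where 42.6% of all genes did. There Ilp6 was at -0.35 ± 0.13, ImpL2 at 0.54 ± 0.17 and chico at 0.09 ± 0.03 (edgeR adjusted p 0.027, 0.010 and 0.032). The chico difference was lost without yw male replicate 1 (0.09, edgeR adjusted p 0.052). That of Ilp6 was lost without any 1 of 7 libraries, with log2 values of -0.33 to -0.23 and edgeR adjusted p up to 0.084. These were H3.3K36RH3.2HWT female and male replicate 3, Set21 female replicate 3, H3.3CtrlH3.2HWT female replicate 2, H3.3CtrlH3.2HWT male replicates 1 and 3, and yw female replicate 2.

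Between the sexes of the 3 control genotypes, 1 of 9 genes was called, where 8.14% of all genes were. Ilp6 was lower in males, with means over the genotypes of 26.2 CPM in males and 31.8 CPM in females and a log2 difference of -0.28 ± 0.07 (edgeR adjusted p 0.013). In yw alone, males had 24.8, 24.4 and 22.7 CPM and females 32.9, 35.4 and 35.2 CPM, without overlap, while the libraries of both sexes overlapped in the other 2 control genotypes. Control genotypes also differed. Between H3.3CtrlH3.2HWT and H3.3WTH3.2HWT, 1 of 9 was called, where 11.6% of all genes were. It was Ilp5, at a mean of 4.60 CPM in H3.3CtrlH3.2HWT and 6.84 CPM in H3.3WTH3.2HWT (log2 difference -0.57 ± 0.18, edgeR adjusted p 0.036), a call lost when any 1 of 8 of the 12 libraries was left out (edgeR adjusted p up to 0.11, without H3.3WTH3.2HWT female replicate 3). Between H3.3WTH3.2HWT and yw, 4 of 9 were called, where 39.3% of all genes were. Ilp3 was at 19.6 CPM in H3.3WTH3.2HWT and 23.4 CPM in yw (log2 difference -0.26 ± 0.07, edgeR adjusted p 0.0027), and Ilp5 at 6.84 and 9.61 CPM in H3.3WTH3.2HWT and yw (-0.49 ± 0.18, edgeR adjusted p 0.030). ImpL2 was at 26.3 and 17.7 CPM in H3.3WTH3.2HWT and yw, as given above, and chico at 59.7 and 62.5 CPM (-0.07 ± 0.02, edgeR adjusted p 0.029). The Ilp5 call was lost when any 1 of 6 of the 12 libraries was left out (edgeR adjusted p up to 0.087, without yw female replicate 1) and without the H3.3WTH3.2HWT female library with most roX2 (-0.46, 0.059). The chico call was lost when any 1 of 5 was left out (edgeR adjusted p up to 0.16, without H3.3WTH3.2HWT female replicate 1).

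Downstream of the receptor, 26 genes of insulin and TOR signal transduction were measured, all of which passed the filter. In H3.3WTH3.2K36R males 2 rose and 5 fell, beside 12.3% of all genes higher and 13.1% lower, and in the females 0 rose and 5 fell, beside 11.1% higher and 13.7% lower. Pdk1, the kinase that activates Akt, fell to 174 CPM in H3.3WTH3.2K36R males, against 254 CPM in H3.3WTH3.2HWT males (log2 -0.55 ± 0.10, edgeR adjusted p 1.2e-04), and to 176 CPM in the mutant females, against 236 CPM in the control females (-0.42 ± 0.10, 0.0022). The TOR complex subunit raptor fell by smaller steps (log2 -0.22 ± 0.04 in males and -0.15 ± 0.04 in females, edgeR adjusted p 4.2e-04 and 0.014), as did Lnk, an adaptor that works beside chico (-0.12 ± 0.03 and -0.13 ± 0.03, edgeR adjusted p 0.0012 and 5.6e-04). In males melt, a membrane-associated regulator of foxo and TOR, fell with a log2 fold change of -0.80 ± 0.23 (edgeR adjusted p 0.0089), and in females rictor, a subunit of the other TOR complex, with -0.18 ± 0.04 (edgeR adjusted p 6.5e-04). The melt call rested on H3.3WTH3.2HWT male replicate 1, without which the log2 fold change was -0.31 (edgeR adjusted p 0.26). In females, raptor was lost without H3.3WTH3.2HWT female replicate 2 or H3.3WTH3.2K36R female replicate 1 (edgeR adjusted p up to 0.17) and was at -0.06 (0.40) without both, and rictor was then at -0.13 (0.051).

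In H3.3K36RH3.2HWT males 1 of the 26 rose and 1 fell, beside 5.88% of all genes higher and 4.08% lower, and in the females none was called, beside 6.35%. Those in males were srl, a PGC-1 relative (log2 0.12 ± 0.04, edgeR adjusted p 0.023), and step, an Arf exchange factor of the insulin pathway (-0.18 ± 0.05, 0.012). Their calls were lost when any 1 of 5 libraries (srl, edgeR adjusted p up to 0.17) or 1 of 2 control libraries (step, up to 0.070) of the 6 was left out. In Set21 males 5 rose and 7 fell, beside 22.9% of all genes higher and 22% lower, and in Set21 females 2 rose and 9 fell, beside 20.9% higher and 21.5% lower. The transcription factor foxo fell to 15.4 CPM in Set21 males and 15.5 CPM in Set21 females, against 19.5 CPM in yw males and 19.6 CPM in yw females (log2 -0.34 ± 0.07 and -0.33 ± 0.07, edgeR adjusted p 1.0e-04 and 1.4e-04). In Set21 males eIF4E1, the cap-binding factor that Thor inhibits, and raptor fell (-0.10 ± 0.02 and -0.21 ± 0.04, edgeR adjusted p 1.4e-04 and 2.6e-04), and Tsc1, an inhibitor of TOR signalling, rose (0.11 ± 0.02, 5.2e-04). In Set21 females the TOR complex subunit Lst8 rose (0.26 ± 0.03, edgeR adjusted p 4.3e-07), while Pi3K21B, the regulatory subunit of PI3 kinase, and srl fell (-0.15 ± 0.03 and -0.13 ± 0.04, edgeR adjusted p 7.5e-04 and 0.0027), srl not without yw female replicate 2 (edgeR adjusted p 0.058). The median log2 fold change of the 26 genes lay between -0.04 and -0.01 in the 6 comparisons. Only up to 4 called genes per mutant and sex are named here, so a gene named in 1 sex may have changed in both. Between the sexes, 0, 0 and 1 of the 26 were called for a difference in the H3.2K36R, H3.3K36R and Set2 responses. Of all genes, 0.0658%, 0.181% and 3.43% were.

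**Figure D4:**
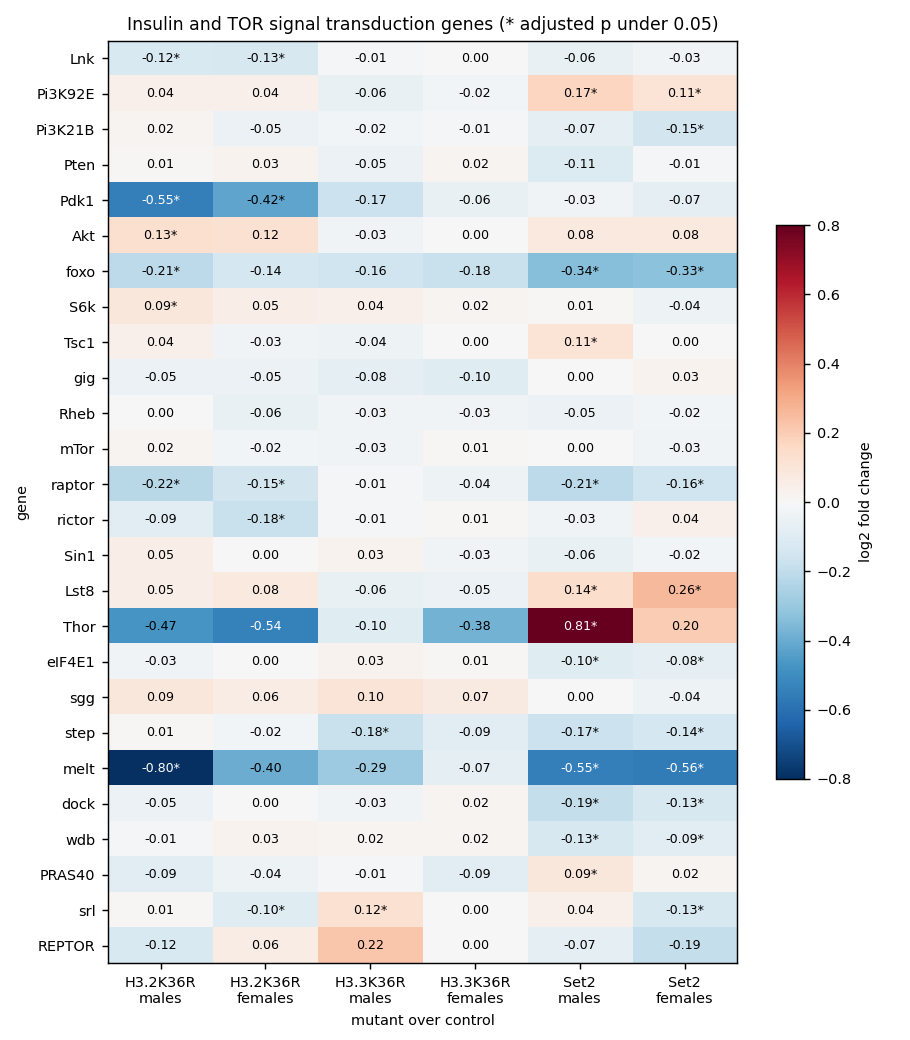
Log2 fold change of mutant over control (colour and printed value) for the 26 insulin and TOR signal transduction genes (rows) in the 6 comparisons (columns), an asterisk marking an adjusted p under 0.05 in edgeR's quasi-likelihood test. Most cells are pale, Pdk1 is lower in both H3.2K36R columns and foxo in both Set2 columns, and the H3.3K36R female column has no asterisk.

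A further list held 33 peptide and receptor genes that act around insulin, of which 32 were tested. In Set21 brains 4 rose and 13 fell in males, and 3 rose and 11 fell in females, beside 22.9% and 20.9% of all genes higher and 22% and 21.5% lower. The receptor gene mth fell with a log2 fold change of -0.68 ± 0.06 in males and -0.53 ± 0.06 in females, the serotonin receptor gene 5-HT1A with -0.36 ± 0.05 in each sex, sun, the gene of a peptide that activates mth, with -0.41 ± 0.06 in males, and sNPF, which encodes a feeding peptide, with -0.53 ± 0.07 in females. Of the 10 markers of differentiated neurons, 8 fell in Set21 males and 7 in Set21 females, beside 22% and 21.5% of all genes lower. None of the 10 rose, and their median log2 fold changes were -0.32 and -0.30. Their part in the falls of this list was not tested. The gene conv (convoluted), a homologue of the acid-labile subunit of insulin-like growth factor complexes, rose, to 18.5 CPM in Set21 males and 15.9 CPM in Set21 females, against 9.57 CPM in yw males and 9.09 CPM in yw females (log2 0.95 ± 0.10 and 0.81 ± 0.10, edgeR adjusted p 5.6e-09 and 1.5e-07).

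In H3.3WTH3.2K36R males 6 of the 32 rose and 4 fell, beside 12.3% of all genes higher and 13.1% lower, and in the females 3 rose and 3 fell, beside 11.1% higher and 13.7% lower. In the males conv fell (log2 -0.48 ± 0.10, edgeR adjusted p 5.6e-04), as did mth (-0.34 ± 0.06, 1.5e-04), and the allatostatin A receptor gene AstA-R1 rose (0.43 ± 0.10, 0.0017). Akh, the glucagon-like hormone of the ring gland, fell to 10.3 CPM in the mutant females, against 19.2 CPM in the control females (log2 -0.90 ± 0.27, edgeR adjusted p 0.015, and 0.082 without H3.3WTH3.2K36R female replicate 3), where sNPF fell and its receptor gene sNPF-R rose (-0.33 ± 0.07 and 0.33 ± 0.09, edgeR adjusted p 0.0013 and 0.0054). In H3.3K36RH3.2HWT males 6 rose and 2 fell, beside 5.88% of all genes higher and 4.08% lower, and in the females 3 rose and 1 fell, beside 3.44% higher and 2.90% lower. There Sdr, which encodes a secreted decoy of the insulin receptor, rose to 30 CPM in males and 29.6 CPM in females, against 21.6 and 21.9 CPM in H3.3CtrlH3.2HWT males and females (log2 0.47 ± 0.07 and 0.43 ± 0.07, edgeR adjusted p 3.1e-05 and 1.1e-04). The octopamine receptor gene Octbeta1R (log2 0.46 ± 0.05 and 0.36 ± 0.04 in males and females) and the tachykinin receptor gene TkR99D (0.40 ± 0.07 and 0.33 ± 0.07) rose as well, TkR99D in the females not without the pair's libraries with most roX2 (0.29, edgeR adjusted p 0.064). Lgr4, a receptor gene of the family of Lgr3, fell in both sexes of the H3.3 mutant (log2 -0.53 ± 0.08 and -0.63 ± 0.08, edgeR adjusted p 2.7e-05 and 2.4e-06), and rose in both sexes of the H3.2 mutant (0.43 ± 0.08 and 0.50 ± 0.08, 1.7e-04 and 2.5e-05). Between the sexes, 0, 0 and 1 of the 32 were called for a difference in the H3.2K36R, H3.3K36R and Set2 responses. Of all genes, 0.0658%, 0.181% and 3.43% were.

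Of the 13 FOXO and nutrient response targets, which include InR, ImpL2 and Ilp6 and share Thor with the transduction list, 12 were tested. In Set21 males 3 rose and 3 fell and in Set21 females 2 rose and 2 fell, where 44.9% and 42.4% of all genes were called. In H3.3WTH3.2K36R males 1 rose and 1 fell and in the females 2 rose and 1 fell, where 25.4% and 24.8% were called. In H3.3K36RH3.2HWT males 1 rose and in the females none was called, where 9.96% and 6.35% were called. Lip4, a lipase gene induced by foxo, rose to 92.4 CPM in Set21 males and 82.1 CPM in Set21 females, against 41.8 CPM in yw males and 42.8 CPM in yw females (log2 1.14 ± 0.07 and 0.94 ± 0.07, edgeR adjusted p 3.9e-13 and 2.7e-11). Its rises in H3.3WTH3.2K36R males and females were 0.20 ± 0.07 and 0.44 ± 0.07 (edgeR adjusted p 0.042 and 4.6e-05), and in H3.3K36RH3.2HWT males 0.23 ± 0.07 (0.038). Thor, the translation inhibitor that foxo induces, rose in Set21 males with overlapping libraries (0.81 ± 0.33, edgeR adjusted p 0.043), and scyl, an inhibitor of TOR signalling, fell in both sexes of Set21 (-0.24 ± 0.07 and -0.21 ± 0.07, edgeR adjusted p 0.0067 and 0.015). Eip74EF, an ecdysone-response gene, rose in H3.3WTH3.2K36R females (0.23 ± 0.09, edgeR adjusted p 0.046, and 0.052 with the replicate number as a block). Without the libraries with most roX2 it was at 0.21 (edgeR adjusted p 0.22). Leaving out 1 library ended the Lip4 calls of the H3.2K36R and H3.3K36R males and the Eip74EF call for 5 of 6 libraries each (edgeR adjusted p up to 0.26, 0.25 and 0.12). It ended the Thor call for 4 of 6 (up to 0.21) and the scyl calls for 1 of 6 in males, Set21 male replicate 1 (0.076), and 3 of 6 in females (up to 0.12). The Lip4 calls in both sexes of Set21 and in the H3.2K36R females held with every library left out.

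The called markers of insulin-producing cells mostly rose in H3.3WTH3.2K36R brains and in H3.3K36RH3.2HWT males, but not in Set21 brains. In H3.3K36RH3.2HWT males 4 of the 12 rose and 1 fell, beside 5.88% of all genes higher and 4.08% lower, and in the females none was called, beside 6.35%. In Set21 males 2 rose and 2 fell and in Set21 females 0 rose and 2 fell, where 44.9% and 42.4% of all genes were called. The transcription factor gene eya, which is also active in many other cells, fell in Set21 males and females (log2 -0.48 ± 0.08 and -0.44 ± 0.08), in H3.3K36RH3.2HWT males (-0.46 ± 0.07) and in H3.3WTH3.2K36R females (-0.33 ± 0.08). Of 8 eye disc markers, a list without eya, 3 fell in each sex of Set21, 3 in H3.3K36RH3.2HWT males and 5 in H3.3WTH3.2K36R females, and none rose. The share of all genes that fell was 22% in Set21 males and 21.5% in Set21 females. It was 4.08% in H3.3K36RH3.2HWT males and 13.7% in H3.3WTH3.2K36R females. The 8 markers summed to 181 to 191 CPM in Set21 males and 175 to 183 CPM in Set21 females, against 212 to 221 CPM in yw males and 211 to 223 CPM in yw females. The sums were 180 to 194 CPM in H3.3K36RH3.2HWT males, against 205 to 225 CPM in H3.3CtrlH3.2HWT males, and 176 to 178 CPM in H3.3WTH3.2K36R females, against 198 to 207 CPM in H3.3WTH3.2HWT females. They were also lower where eya was not called. H3.3WTH3.2K36R males had 164 to 166 CPM, against 195 to 204 CPM in H3.3WTH3.2HWT males. H3.3K36RH3.2HWT females had 188 to 192 CPM, against 206 to 207 CPM in H3.3CtrlH3.2HWT females. No marker was at 0 throughout a group, and their part in the falls of eya was not tested. In H3.3K36RH3.2HWT males the peptide gene Dsk, which these cells co-express, rose (0.34 ± 0.09, edgeR adjusted p 0.013), with the peptide-amidation enzyme genes Pal2 and Phm (0.28 ± 0.07 and 0.12 ± 0.03, 0.010 and 0.021). In H3.3WTH3.2K36R brains the prohormone convertase gene amon rose in males (0.18 ± 0.05, 0.0068) and dimm, the neurosecretory transcription factor gene, rose in females (0.36 ± 0.11, 0.014). In Set21 brains Sur fell and Pal2 and Phm rose in males (-0.25 ± 0.08, 0.18 ± 0.07 and 0.09 ± 0.03, edgeR adjusted p 0.018, 0.046 and 0.025), and the carboxypeptidase gene svr fell in females (-0.12 ± 0.04, 0.013). Apart from Ilp3, the eya falls and the Sur rises, the calls named from this list were each lost without at least 1 library, amon without 2 of 6 (edgeR adjusted p up to 0.11), dimm without H3.3WTH3.2HWT female replicate 3 (0.063) and Dsk, Pal2, Phm, Sur and svr without 2 to 4 of 6 (up to 0.24). Without the libraries with most roX2, eya in the H3.2K36R females was at -0.24 (edgeR adjusted p 0.059) and dimm at 0.36 (0.077).

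As a description, the genes most like each member over the 12 group means of log2 CPM were listed by Pearson's r. For Ilp3 these were pes (r of 0.946) and CG6287 (0.944), for ImpL2 Tspo (0.911) and CG40470 (0.906), and for Ilp6 CG14200 and CG3587 (0.935 each). For Ilp2 they were CG34450 (0.904) and CG8369 (0.856), for Ilp5 Mtr3 (0.942) and CG34174 (0.933), for Ilp1 otk2 (0.937) and Vps16A (0.921), and for Ilp7 Jon99Cii (0.928) and Faa (0.923). InR was most like CCHa1-R (0.976) and CG17646 (0.974), and chico like Zcchc7 (0.959) and Hsf (0.940). No member was among the closest 2 genes of another. With 12 points and 12167 genes to choose from, such values are high by selection.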

How the data were processed

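PolyA-selected RNA of larval brains was sequenced, and the authors deposited raw read counts per gene, 1 column for each of 36 libraries. STAR 2.7.2a and Subread 2.0.3 are named in the submitters' processing notes, without settings. No label or header gives the genome build, the annotation or the strand setting, and coordinates were left out. Between 79.2% and 85.1% of the values from 1 to 4 in a library were even, so both reads of a pair appear to be counted, and a count of 1 fragment is often 2 reads. The table held 0 columns of other series. Symbols, chromosome arms and exon lengths came from Ensembl release 115, where 17527 of the 17606 identifiers matched. Of 178 list entries, 3 were matched through an older symbol.

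Counts were tested with edgeR 4.0.16 in R 4.3.3 (limma 3.58.1), after filterByExpr over the 12 groups with a minimum count of 10 and TMM scaling. The quasi-likelihood model had 12 group means and 24 residual degrees of freedom, p-values of 2-sided tests were adjusted by the Benjamini-Hochberg method over the 12167 genes tested in each of 15 comparisons, and the threshold was 0.05. The SE is the absolute log2 fold change divided by the square root of F. CPM used TMM factors, and correlations used log2 CPM with a prior count of 2. The pipeline was tested on simulated data with known changes. Between pairs of libraries of a group, chi-square per degree of freedom on the read counts was 8.19 to 96.1. Counting both reads of a pair raises this value. It cannot tell separate animals from repeat preparations of the same RNA.

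Named beside the 10 genes were up to 4 called genes of each list per mutant and sex, by smallest adjusted p, and the 2 genes most like each of the 10. The genes and lists were chosen with earlier results of these data known, and some lists overlap. Alternatives were DESeq2 1.42.0, its size factors in edgeR, no filter, a minimum count of 50, the replicate number as a block, only the compared libraries, each library left out in turn and, chosen after seeing the data, the female libraries with most roX2 of the H3.2 pair, or of the H3.3 pair, left out. Libraries of mutant and control with the same number deviated together in H3.2K36R females (r of 0.340, 0.105 and 0.186 over genes). In the other 5 comparisons at least 1 of the 3 correlations was under 0.1. With the block, 3 of 9 genes were called in H3.2K36R females, as without it. Depth covers counting error only, and with 3 libraries a group the spread between libraries sets the precision.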

Additional observations from a re-analysis of the deposited data

How the results depend on the processing

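Of 135 results for a tested gene in a comparison, 20 crossed the threshold in at least 1 alternative, none reversed, and the others kept their side of it throughout. The Ilp3 rises in both sexes of H3.2K36R, the ImpL2 rise in Set21 males, the Ilp6 fall in Set21 females and the Ilp6 sex difference of the controls were called under every alternative. In Set21 males 1 of 9 genes was called, and 2 with DESeq2 size factors, a minimum count of 50, the replicate block or DESeq2, where chico was added, and 2 with only the compared libraries, where Ilp6 was added. With each library left out in turn, 1 to 2 genes were called in the H3.2K36R males, 2 to 3 in the H3.2K36R females, 0 to 0 in the H3.3K36R males and females, 1 to 2 in the Set21 males, 1 to 2 in the Set21 females, and 0 to 0 for each of the 3 sex differences in response. Between responses it was 3 to 6 for H3.2K36R against H3.3K36R (6 without H3.3K36RH3.2HWT female replicate 3), 3 to 4 for H3.2K36R against Set2 and 2 to 4 for Set2 against H3.3K36R. It was 1 to 1 for sex in the controls, 0 to 1 for H3.3CtrlH3.2HWT against H3.3WTH3.2HWT and 2 to 4 for H3.3WTH3.2HWT against yw. Genes added with a library left out were Ilp2 (log2 -0.54 to -0.50), InR (0.34 to 0.37) and Ilp6 (0.33) for H3.2K36R against H3.3K36R, and Ilp1 for H3.2K36R against Set2 (0.81 to 0.84) and for Set2 against H3.3K36R (0.86 to 0.97). Others were ImpL2 for H3.3CtrlH3.2HWT against H3.3WTH3.2HWT (-0.38, edgeR adjusted p 0.049, without H3.3WTH3.2HWT male replicate 1) and, as given with the genes, Ilp3 and chico in Set21 males. Without the H3.3 pair's female libraries with most roX2, 5 genes differed for H3.2K36R against H3.3K36R, Ilp2 (-0.56, 0.027) and InR (0.37, 0.017) being added, and Ilp1 was added for Set2 against H3.3K36R (0.92, 0.030). Of 66 calls of list genes named, 45 held with every library left out. With only the compared libraries fitted, melt, AstA-R1, amon, Lip4 and raptor in H3.2K36R (1 sex each, edgeR adjusted p 0.12, 0.068, 0.067, 0.069 and 0.15) and Sur, Phm, Pal2 and Thor in Set21 males (0.052, 0.14, 0.10 and 0.073) were not called, and InR was called for H3.3WTH3.2HWT against yw (0.18, edgeR adjusted p 0.038). The causes were not tested.

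The replicate numbers pair the libraries of H3.2K36R females by the check given with the methods, and the block changed no member call there. With the block, InR was called between the H3.2K36R and H3.3K36R responses (4 genes, log2 0.30, edgeR adjusted p 0.048) and Ilp1 between the Set2 and H3.3K36R responses (4 genes, 0.75, 0.050). It changed no other member call but that of chico in Set21 males. Thor in Set21 males was at 0.79 (edgeR adjusted p 0.052) with the block.

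Over all genes, H3.3K36R females had 772 calls, and 320 with only the compared libraries. H3.2K36R females had 3018, and 1827 without the libraries with most roX2. The sex difference of the H3.2K36R response had 8 calls, against 38 with DESeq2, 0 with only the compared libraries, 4 without the libraries with most roX2 and 0 to 21 with 1 library left out. That of the H3.3K36R response had 22, against 45 with DESeq2, 9 with only the compared libraries, 6 without the H3.3 pair's libraries with most roX2 and 9 to 27 with 1 left out. The H3.3K36R males had 1212, and 746 to 990 with 1 left out. Ilp1, Ilp7 and Ilp8 had the fewest reads, and for them depth limits what could be called.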
